A study of Mus musculus with 4 samples.

Results

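The Nr6a1 gene and its flanks, a 240 kb window at chr2:38560000-38800000 on the mouse build mm9, held 5 of the 37667 NR6A1 peaks in the 2 deposited lists. The window was fixed by position, and every peak with its midpoint inside it was taken: 3 of 21507 peaks in replicate 1 and 2 of 16160 in replicate 2. The peaks come from chromatin immunoprecipitation followed by sequencing (ChIP-seq), in which fragments bound by a protein are recovered with an antibody and aligned to the genome. The cells were a monoclonal, immortalized line of C57BL/6 mouse mesenchymal stem cells (MSCs) with floxed Dicer alleles (Dicer f/f), referred to as Dicer WT, so all values come from 1 clone. They were infected with the retrovirus pMMP-puro-Flag-HA-NR6A1, selected with puromycin, fixed with formaldehyde for 10 min and immunoprecipitated with 5 µg of antibody to HA, in 2 replicates. The 2 libraries of cells with the pMMP-puro vector, with the same floxed alleles, selection and antibody, were not analysed here, so no background of the antibody is set beside the values below. The labels do not say whether the 2 replicates were separate infections.

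NR6A1, also known as germ cell nuclear factor, is an orphan nuclear receptor that binds DNA as a dimer and mostly represses its targets. Its preferred site is a direct repeat of the nuclear receptor core motif AGGTCA with no spacer, and in embryos it takes part in the silencing of pluripotency genes. Per the series title, the microRNA let-7 represses Nr6a1. The locus raises a question of its own in these cells. A retroviral cDNA has no introns, so reads from the cDNA part of the provirus, where they match the mouse sequence within an exon, could align to exons of the endogenous gene alongside reads from binding at the locus. The labels do not give the species of the cDNA or the exons it holds.

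In the RefSeq gene table for GRCm38.p6, which is another build and was used for names, order and length only, Nr6a1 is 203.1 kb long. The neighbour before it in order is Nr5a1, which encodes the nuclear receptor steroidogenic factor 1, and the protein-coding neighbour after it is Olfml2a. Inside the span of Nr6a1 lie the antisense transcript Nr6a1os and the microRNA genes Mir181a-2 and Mir181b-2, which are on the strand opposite to Nr6a1. The 5p products of these microRNAs are shown because they are the other short genes whose position falls within the gene. The capitals mark the seed, bases 2 to 8, which both share.
mmu-miR-181a-5p: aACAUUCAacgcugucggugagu
mmu-miR-181b-5p: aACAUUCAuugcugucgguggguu

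RefSeq gives 2 promoters for Nr6a1 in GRCm38.p6, each 300 bases on the minus strand, from 250 before to 50 after a start site. They are printed 5′ to 3′ because the gene's own start sites are where self-binding of NR6A1 would be looked for first. Capitals mark the core motif AGGTCA, or its reverse complement TGACCT, found on either strand.
Nr6a1 promoter 1 (upstream start): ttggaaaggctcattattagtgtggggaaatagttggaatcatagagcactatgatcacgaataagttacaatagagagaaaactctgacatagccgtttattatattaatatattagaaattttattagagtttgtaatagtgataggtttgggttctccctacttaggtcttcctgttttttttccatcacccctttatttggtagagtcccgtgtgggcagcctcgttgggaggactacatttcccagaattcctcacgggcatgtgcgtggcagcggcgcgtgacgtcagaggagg
Nr6a1 promoter 2 (downstream start): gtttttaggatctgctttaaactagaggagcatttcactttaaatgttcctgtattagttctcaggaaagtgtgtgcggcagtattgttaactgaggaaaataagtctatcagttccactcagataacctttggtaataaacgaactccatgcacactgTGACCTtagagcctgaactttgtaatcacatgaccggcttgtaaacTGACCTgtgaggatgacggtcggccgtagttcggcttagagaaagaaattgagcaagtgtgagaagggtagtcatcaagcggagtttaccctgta

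Promoter 1 held 0 copies of the core motif, and promoter 2 held 2, both as TGACCT, starting at bases 160 and 206 of the sequence shown. At least 1 copy was present in 16.3% of the 32851 mouse promoters of the same length in the table, and 2 or more copies in 1.81%. The extended motif TCAAGGTCA, whose letters include the core motif, was in neither Nr6a1 promoter and in 0.423% of all promoters. The spacer-free direct repeat AGGTCAAGGTCA was likewise in neither and occurred in 2 of all promoters. These letters describe the sequence only, and which peak, if any, covers either promoter was not determined, because positions were not moved between builds.

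The 5 peaks of the window all had low scores for their list. The authors' score, which was read as a log-transformed p-value from MACS and is higher for stronger peaks, had a lowest value of 200.01 in replicate 1 and 200.04 in replicate 2. Scores depend on the library they come from, so they were ranked within a list.

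In replicate 1 the first peak, at chr2:38573040-38573388, was 349 bp wide and had a score of 204.75. The second, at chr2:38775494-38775895, was 402 bp wide with a score of 212.04. The third, at chr2:38782658-38783088, was 431 bp wide with a score of 202.57. All 3 lay just above the lowest score of the list, with 335, 962 and 190 of the 21507 peaks below them, which puts them at percentiles 1.56, 4.47 and 0.883.

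In replicate 2 the first peak, at chr2:38780644-38781208, was 565 bp wide with a score of 284.75. The second, at chr2:38782601-38783120, was 520 bp wide with a score of 228.23. Both were in the lower part of their list too, at percentiles 28.9 and 11.6, although less close to its floor. No peak of the window reached the median score of its list, 417 in replicate 1 and 394 in replicate 2.

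**Figure D1:**
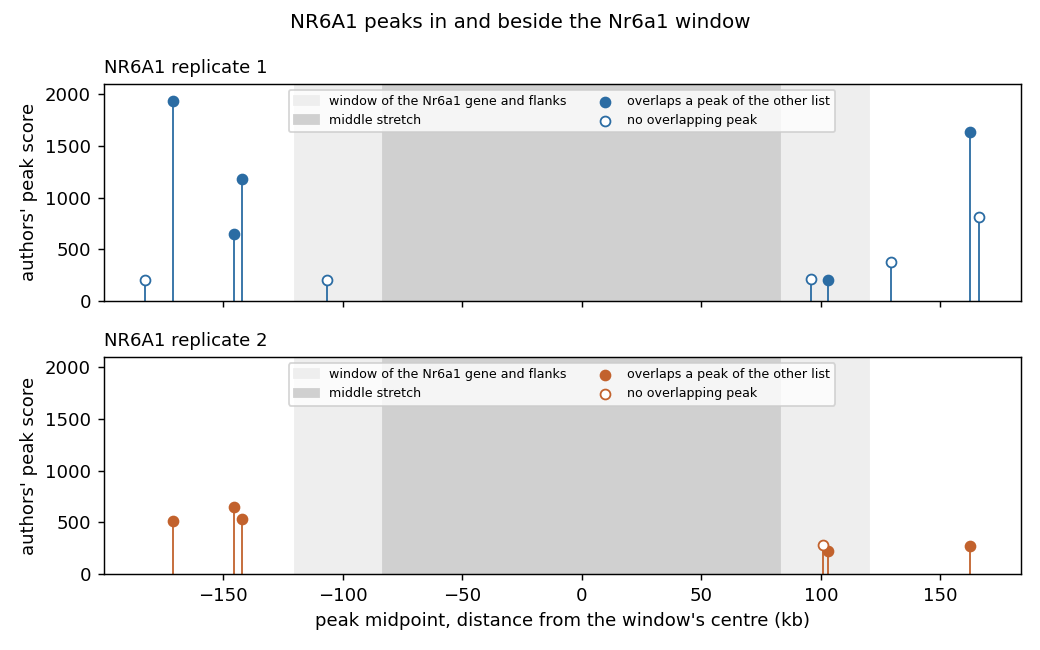
Each peak in the window and within 100 kb of it, by the distance of its midpoint from the window's centre (kb, horizontal axis) and the authors' score (vertical axis, from 0), for replicate 1 (top) and replicate 2 (bottom). Filled circles overlap a peak of the other list; the dark band, the middle stretch that the gene must cover if it lies inside the window, holds no peak in either list, and the scores inside the window stay at or below 284.75 while the highest beside it is 1930.62.

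The replicate 1 peaks were narrow for their list, as low-scoring peaks there were. The replicate 2 peaks were less so, though below the median width of theirs. The median width of the 3 replicate 1 peaks was 402 bp, at percentile 9.42 of a list with a median of 538 bp (quartiles 462 and 665). Among the 4597 replicate 1 peaks with a score up to 265, the top of a band set around the scores in the window, the median was 438 bp (quartiles 394 and 485), and 402 bp was at percentile 28.8. In replicate 2 the median of 542.5 bp was at percentile 28.9 of a list with a median of 613 bp. Among 7081 replicate 2 peaks with a score up to 356, it was at percentile 52.3, beside a median of 538 bp. Set beside peaks of like score, the median widths at Nr6a1 were thus inside the quartiles in both replicates, while the single peak of 349 bp in replicate 1 was below them. Together the peaks covered 1182 bp or 0.492% of the window in replicate 1, and 1085 bp or 0.452% in replicate 2.

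**Figure D2:**
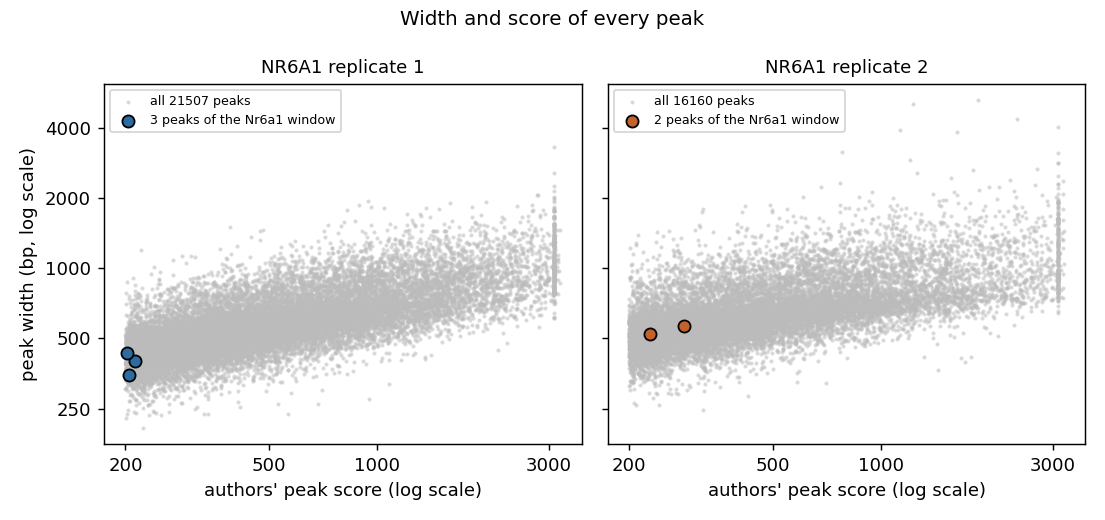
Width (bp, vertical log axis) against the authors' score (horizontal log axis) for every peak of each list (grey points) and for the peaks of the Nr6a1 window (coloured circles). The 3 replicate 1 peaks sit at the left edge with scores of 202.57 to 212.04, the 2 replicate 2 peaks have scores of 228.23 and 284.75, and all 5 lie inside the cloud of peaks with like scores.

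The peaks were spaced in a way that left most of the gene empty. In replicate 1 no peak lay between 38573389 and 38775493, a stretch of 202.1 kb, and 10.7% of the 21483 stretches between neighbouring peaks of that list were as long. In replicate 2 the empty stretch ran from 38538401, outside the window, to 38780643, over 242.2 kb, and 13.8% of its 16137 stretches were as long. Empty stretches of this length are therefore common in both lists. If the gene has the length given above and lies inside the window, it must cover the middle 166.2 kb, from 38596908 to 38763092, which is 81.8% of its length. In that middle stretch 0 peaks were listed in either replicate. If its strand is also the minus strand given for its promoters in GRCm38.p6, its 5′ end lies to the right of this stretch. Its 3′ end then lies to the left, the side of the replicate 1 peak at chr2:38573040-38573388. Exons that lie nearer the ends of the gene could fall on either side of the middle stretch. An mm9 annotation of exons was not used here, so whether any of the 5 peaks coincides with an exon was not determined. The part that proviral reads play in these 5 peaks was not tested. A list of peaks also does not show reads below the authors' threshold.

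Of the 5 peaks, 4 gathered in the right-hand part of the window, within 7.6 kb at chr2:38775494-38783120. They include the position found in both lists, which is counted once per list. On the conditions of length, place and strand given above, this is the side of the gene's 5′ end. Which of these peaks, if any, lies at a start site was not determined. The replicate 1 peaks of the group were 7.18 kb apart by their midpoints, and 23.2% of spacings in that list were as short. The replicate 2 peaks were 1.93 kb apart, and 7.67% of spacings in that list were as short. The median spacing was 28.8 kb in replicate 1 and 38.4 kb in replicate 2.

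**Figure D3:**
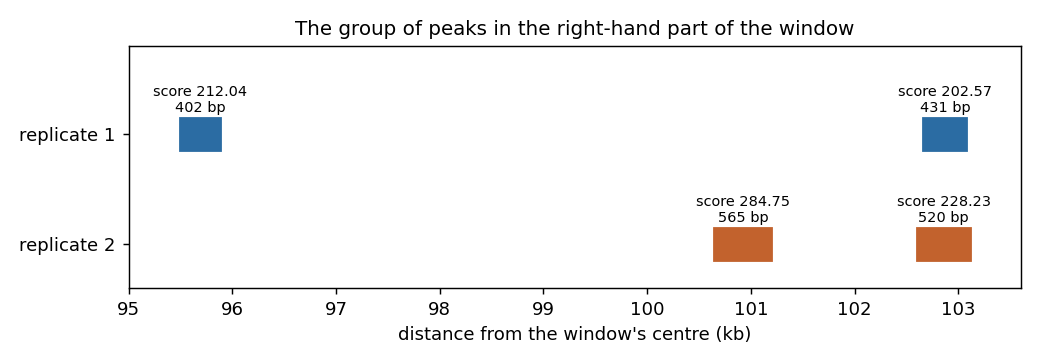
The 4 peaks of the right-hand group as bars drawn to scale by distance from the window's centre (kb), with replicate 1 above and replicate 2 below, each labelled with its score and width. The 431 bp peak of replicate 1 lies wholly within the span of the 520 bp peak of replicate 2, and the other peaks overlap nothing in the other list.

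One position in the window was found in both replicates. The replicate 1 peak of 431 bp at chr2:38782658-38783088 lay entirely inside the replicate 2 peak of 520 bp at chr2:38782601-38783120, as 52.4% of replicate 1 peaks in such pairs did, and their midpoints were 12.5 bp apart. Across all 9223 pairs of overlapping peaks the median distance was 37.5 bp, and 19.5% of pairs were as close. The scores of this pair, 202.57 and 228.23, were among the lowest of any pair: in 0.932% of pairs both scores were below 228.23. That count holds the scores of both lists against the replicate 2 value, so it is not a rank within a list. The midpoints thus matched closely, whereas both scores were low in their lists.

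Overlap at the locus was 1 of 3 replicate 1 peaks, or 33.3% (exact Clopper-Pearson 95% interval 0.84 to 90.6%), against 42.7% of all replicate 1 peaks. It was 1 of 2 replicate 2 peaks, or 50.0% (1.26 to 98.7%), against 56.0% of all replicate 2 peaks. Among peaks in the score bands given above, 28.3% of replicate 1 peaks and 39.5% of replicate 2 peaks overlapped one in the other list. The intervals reflect the small number of peaks only and say nothing of variation between cultures. They are too wide to set these peaks apart from any share seen in the lists, and the shared position enters both counts.

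The other 3 peaks had no counterpart. The replicate 1 peak at chr2:38573040-38573388 was 34.64 kb from the nearest replicate 2 peak, and 55.5% of the 12315 replicate 1 peaks without a partner that could be measured were as near to one. The replicate 1 peak at chr2:38775494-38775895 was 4.75 kb from the nearest, and 17.0% were as near. The replicate 2 peak at chr2:38780644-38781208 was 1.45 kb from the nearest replicate 1 peak, which was the shared one, and 11.1% of 7117 such replicate 2 peaks were as near. The unmatched peaks of the right-hand group thus lay nearer to a peak of the other list than most unmatched peaks did. That group, however, is made of peaks that lie close together. The distance of 4.75 kb is to the replicate 2 peak at chr2:38780644-38781208, which has no partner either.

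By number of peaks the window was not sparse. Its 3 peaks in replicate 1 correspond to 12.5 peaks per Mb, against 8.16 over chromosomes 1 to 19 and X, and its 2 in replicate 2 to 8.33 against 6.14. When these chromosomes were divided into 10971 consecutive windows of 240 kb, 29.3% held at least 3 replicate 1 peaks and 32.0% held at least 2 replicate 2 peaks. No replicate 1 peak lay in 49.1% of windows and no replicate 2 peak in 52.3%.

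Beside windows with as many peaks, the highest score in the Nr6a1 window was low, above all in replicate 1. This measure was chosen after the values had been seen and is given as a description. In replicate 1 the highest score was 212.04, and in 0 of the 836 windows with 3 peaks was the highest score as low. Their median highest score was 801 (quartiles 518 and 1250). In replicate 2 the highest score was 284.75, and 117 of 1091 windows with 2 peaks, or 10.7%, had one as low, with a median of 550 (quartiles 364 and 923). Among windows with at least 2 replicate 2 peaks the share was 4.04%. The windows most like it by number, with 3 replicate 1 peaks, 2 replicate 2 peaks and 1 replicate 1 peak with a partner, were 92 of 10971. In those 92 the highest replicate 1 score ran from 262.29 to 3124.79 with a median of 776. The highest replicate 2 score in them ran from 221.41 to 3100, with a median of 500. So in replicate 1 the Nr6a1 window lay below all 92, and in replicate 2 it lay within their range.

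**Figure D4:**
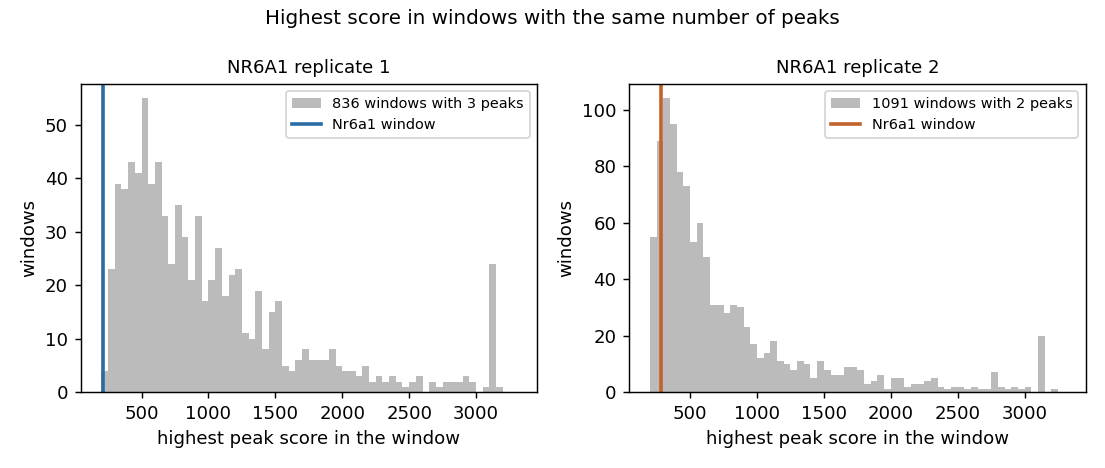
Number of 240 kb windows (vertical axis) by the highest score in the window (horizontal axis, bins of 50) among windows with the same number of peaks as the Nr6a1 window, 3 in replicate 1 and 2 in replicate 2. The coloured line marks the Nr6a1 window, at 212.04 in replicate 1, left of all 836 windows, and at 284.75 in replicate 2, where 10.7% of 1091 windows are as low.

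Higher-scoring NR6A1 peaks lay outside the window on the left in both replicates, and on the right in replicate 1 only. On the left, 22.0 kb outside the edge, the replicate 1 peak at chr2:38537599-38538453 had a score of 1180.27, and its replicate 2 partner at chr2:38537573-38538400 had 532.6. Next to it, chr2:38534414-38534885 scored 644.43 in replicate 1, and chr2:38534039-38535001 scored 649.14 in replicate 2. Farther left, chr2:38508226-38509648 scored 1930.62 in replicate 1, above 95.5% of the list, and chr2:38508700-38509678 scored 513.35 in replicate 2. These 3 pairs were each above the median of their list in both replicates. A lone replicate 1 peak at chr2:38497268-38497615, with a score of 204.21, was as low as those inside the window.

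On the right, the replicate 1 peak nearest the edge was 9.2 kb outside it, at chr2:38808947-38809497, with a score of 372.99 and no partner. At chr2:38841897-38842830, 42.4 kb outside, the replicate 1 score was 1633.79 and that of the replicate 2 partner at chr2:38841995-38843150 was 274.27. A last replicate 1 peak at chr2:38845704-38846474 scored 812.88 without a partner. The right-hand pair was high in replicate 1 only, at percentile 93.7 against 26.0 in replicate 2, and no correction for library depth was possible. The genes at these flanking positions were not determined.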

How the data were processed

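Values were 2 peak lists, 1 per NR6A1 replicate, so the authors called peaks on each sample. Per the submitters' processing notes, Bowtie 0.12.7, MACS and build mm9 were used, without stated roles. The MACS version, control library and threshold are not given in the sources used here. The deposited score per peak carries no stated unit. It was read as MACS's log-transformed p-value from its range. Read depth is unknown. The positions as deposited were written with the first base as 1.

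A partner is a peak of the other list that shares at least 1 bp. Percentiles are the share of the same list with a lower value. Windows ran from the first base of chromosomes 1 to 19 and X to the last peak. Python 3.11.15, numpy 2.4.6, pandas 2.3.3 and scipy 1.17.1 were used, and the overlap code was tested on simulated lists. No test was made, since each replicate gives 1 list and peaks are not replicates. The rule named every peak in the window. The window and the measures were chosen with earlier results of these data known. An exon overlap was planned but not run, since no mm9 annotation was used here. Alternatives covered the overlap, the score threshold, the window edges, the comparison peaks and windows, and leaving out a list.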

Additional observations from a re-analysis of the deposited data

How the results depend on the processing

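Of 34 values under an alternative, 20 stayed within their limit and 14 moved. With the window widened by 50 kb on each side, it held 8 replicate 1 and 5 replicate 2 peaks, in 9 regions of which 4 were in both lists, and 50.0% and 80.0% of the peaks had a partner. This takes in the nearer of the higher-scoring sites beside the window, but not the pair farthest left. In the upper 50% of each list by score, 0 peaks remained in either replicate and hence 0 regions in either list or in both, so no share could be given. Regions in either list numbered 4, and 2 to 3 when one replicate was left out. Among peaks in the score bands, the width percentiles were 28.8 and 52.3, against 9.42 and 28.9 in the whole lists. Among windows of chromosome 2 only, 36.2% held at least 3 replicate 1 peaks. A 50% reciprocal overlap, or midpoints within 100 bp, left the 1 shared region and both shares as reported. The share of windows with a highest score as low was added after seeing the data. With the comparison windows shifted by 50% of their length, it was 0 in replicate 1 and 9.41% in replicate 2. Among windows with at least as many peaks it was 0 in replicate 1 and 4.04% in replicate 2. That move from 10.7% is counted above as within the limit set by the gap between the replicates. The edges of the Nr6a1 window itself were not moved for this share. Within 50 kb outside them, scores reached 1633.79 in replicate 1 and 649.14 in replicate 2. The low highest scores therefore hold for the window as set. No paired analysis was possible because no list was used for the vector libraries. Read counts were not used, so positions just under the authors' threshold look the same here as unbound ones.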
